A study of Mus musculus with 160 samples.

Results

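The immediate early genes and the feedback genes of NF-kB signalling were followed in single stromal cells of mouse bone marrow. The set held 34 genes chosen by name for their known roles, with earlier results of these data known. All 34 were found among the 23219 gene names of the table, with a value in each of 160 cells. Rows that share a name were summed, which concerned Nr4a1, Zfp36 and Ctgf.

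Immediate early genes are transcribed within minutes of a growth factor, cytokine, mechanical or stress signal, from promoters that are already occupied and without the need for new protein. Their products fall into transcription factors of the AP-1, EGR, NR4A and KLF families, which act on later genes, and feedback proteins such as the phosphatase Dusp1, the RNA decay factor Zfp36 and the NF-kB inhibitor Nfkbia, which switch the signal off. Leptin receptor-positive stromal cells lie around marrow vessels, secrete the factors that hold blood stem cells and give rise to bone and fat cells.

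The cells came from C57BL/6J mice and were sorted for the leptin receptor and CD140a (platelet-derived growth factor receptor alpha) after cells with CD45, Ter119 or CD31 had been removed. There were 82 cells from young mice, labelled as 9 weeks old, and 78 from old mice, labelled as 24 months old, whereas the protocol text gives 10 weeks and 2 years. The labels name no treatment, transgene or deleted allele for these cells, although the series as a whole is titled for the loss of p53. The labels tie no cell to an animal. Each age therefore counts as a single sample without replicates, and the comparison of ages is given as values with no test.

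The values are FPKM, fragments scaled for transcript length and for the cell's total of mapped fragments. The FPKM summed over named genes still ran from 22567 to 7385269 per cell. It was over 3 times the median of the age in 13 young and 9 old cells. A high FPKM in such a cell may not be on the scale of the other cells. A gene is called listed in a cell at 1 FPKM or more, a level is the mean over cells of log2(FPKM + 1), and intervals are exact (Clopper-Pearson) 95% intervals that cover counting error only. Where no cell listed a gene, the exact interval runs to 4.40% of young and 4.62% of old cells, and 3 cells would make 3.66% and 3.85%. The number of reads is not given in the sources used here, so the depth is unknown, and an FPKM of 0 can be a failed estimate: Gapdh was at 0 in 91 of 160 cells. Young cells listed a median of 1164 named genes (136 to 2244) and old cells 1243 (203 to 2862). At least 3 of 7 marrow stromal markers were listed in 80 young and 71 old cells. Any of 8 hematopoietic markers was listed in 2 young and 3 old cells, any of 5 erythroid markers in 1 and 1, any of 6 endothelial markers in 0 and 0, any of 5 pericyte and smooth muscle markers in 3 and 1, and any of 4 proliferation markers in 0 and 0. At least 1 of 5 osteoblast markers was listed in 18 young and 20 old cells, but 3 or more in none. Xist was found at that level in 0 young but 54 old cells, and any of 4 Y-linked genes in 34 young but 0 old cells. The ages were also counted in separate sets of 96 wells, so age, sex-linked RNA and capture cannot be told apart in any comparison below. All cells used here were loaded onto the chip after sorting, so the level of these genes in cells still in the marrow was not tested.

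Promoters were read for 27 of the 34 genes, Cyr61 under its newer symbol Ccn1, from RefSeq on the build GRCm38.p6. Not among the 27 were Egr1, Egr3, Fosl1, Ier2, Myc, Ctgf and Nfkbiz. The expression values were made on the older build mm9, so the coordinates below belong to the RefSeq build alone. Each window is the 250 bases before a transcription start, and 7 motifs were searched on both strands. These were the CArG box bound by serum response factor, the cAMP response element TGACGTCA, its core TGACG (contained in the full element on both strands), the AP-1 sites TGACTCA and TGAGTCA, the EGR site GCGTGGGCG, the NF-kB site and TATAAA. The sequences shown are examples of members with a match and were picked for it. Jun, which is in 4 of the 10 pairs with the highest mean correlation described further on, held no match to any of the 7 motifs. Jund, Ier5, Klf6, Dusp6, Socs3 and Rhob held none either. The core TGACG was in the windows of 14 of 27 member genes (51.9%) and of 19.8% of all 27025 genes in the RefSeq table. For every motif, all genes were taken as they are, not matched to the members in base composition or expression. Capitals mark the motif matches. The first set holds 3 AP-1 genes and a feedback gene with the cAMP element core or the full element: Fos (chr12:85473640-85473889, plus strand), Fosb (chr7:19310046-19310295, minus strand), Junb (chr8:84978749-84978998, minus strand) and Dusp1 (chr17:26508473-26508722, minus strand).
Fos: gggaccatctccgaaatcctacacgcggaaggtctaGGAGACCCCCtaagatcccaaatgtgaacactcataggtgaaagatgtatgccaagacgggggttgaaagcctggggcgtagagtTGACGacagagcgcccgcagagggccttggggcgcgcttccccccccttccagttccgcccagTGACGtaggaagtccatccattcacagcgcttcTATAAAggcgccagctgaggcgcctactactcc
Fosb: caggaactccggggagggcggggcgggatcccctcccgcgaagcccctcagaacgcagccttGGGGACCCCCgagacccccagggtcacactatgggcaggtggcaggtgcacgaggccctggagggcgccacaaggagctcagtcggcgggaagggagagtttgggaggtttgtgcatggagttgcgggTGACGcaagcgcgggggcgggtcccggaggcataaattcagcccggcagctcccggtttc
Junb: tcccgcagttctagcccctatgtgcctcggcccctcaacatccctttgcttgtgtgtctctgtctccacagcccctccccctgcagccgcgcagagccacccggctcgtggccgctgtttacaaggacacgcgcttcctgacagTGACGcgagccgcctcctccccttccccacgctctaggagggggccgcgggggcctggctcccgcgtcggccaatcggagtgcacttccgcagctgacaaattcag
Dusp1: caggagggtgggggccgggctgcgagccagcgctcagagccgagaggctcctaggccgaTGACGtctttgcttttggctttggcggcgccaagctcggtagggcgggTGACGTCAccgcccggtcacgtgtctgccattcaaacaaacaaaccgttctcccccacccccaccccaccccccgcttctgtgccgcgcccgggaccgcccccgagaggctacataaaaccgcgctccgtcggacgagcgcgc
The Fos window holds 2 cores whose most upstream bases lie 129 and 66 bases before the start, 1 NF-kB match at 214 and TATAAA at 33. Fosb and Junb hold 1 core each, at 60 and 106 bases, and Fosb also 1 NF-kB match at 188. Dusp1 holds the full element at 143 bases and a separate core at 191. The full element was found in Dusp1 and Btg2 only among the 27 genes (7.41%, against 1.77% of all genes).

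The second set shows examples of member promoters whose matches are of another kind, Zfp36 with a CArG box (chr7:28379229-28379478, minus strand) and Nfkbia with an NF-kB site (chr12:55492648-55492897, minus strand).
Zfp36: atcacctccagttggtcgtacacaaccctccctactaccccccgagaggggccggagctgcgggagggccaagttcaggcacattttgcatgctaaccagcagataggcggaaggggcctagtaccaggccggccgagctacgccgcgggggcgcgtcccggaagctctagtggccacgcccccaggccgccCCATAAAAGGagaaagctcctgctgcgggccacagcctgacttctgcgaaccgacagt
Nfkbia: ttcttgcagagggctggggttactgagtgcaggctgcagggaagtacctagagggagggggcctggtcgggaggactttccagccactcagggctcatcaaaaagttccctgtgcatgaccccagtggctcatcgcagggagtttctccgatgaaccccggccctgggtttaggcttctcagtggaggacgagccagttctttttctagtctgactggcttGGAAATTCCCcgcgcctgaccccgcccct
The CArG box of Zfp36 begins 58 bases before the start and the NF-kB match of Nfkbia 29 bases before it. A CArG box was in the windows of 2 of 27 genes, Egr2 and Zfp36 (7.41%, against 1.62% of all genes). Bases further upstream were not searched for any motif, and Egr1 had no window. A gene without a match, such as Fos for the CArG box, may therefore still hold a site outside its window. The NF-kB site was in 6 genes, Fos, Fosb, Fosl2, Ier3, Nfkbia and Tnfaip3 (22.2%, against 4.46%). TATAAA was also in 6, Fos, Cyr61, Gadd45b, Gadd45g, Nr4a2 and Tnfaip3 (22.2%, against 14.3%). The AP-1 site was in 1 gene, Tnfaip3 (3.70%, against 5.16%), and the EGR site in none of the 27 (0.622% of all genes). A match is a run of letters and not a measured binding site, and genes with several starts have several windows and so more chances of a match: Egr2 has 5 windows and Tnfaip3 has 2.

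The set as a whole was present in most cells but unevenly. Of the 34 genes, 16 were listed in 20% or more of young cells, where 6.71% of all named genes reached that share, and 17 in 20% or more of old cells, where 6.52% did. Together these were 17 genes, 16 of them at both ages and Socs3 in old cells only. The median share of cells over the 34 genes was 17.7% in young and 19.2% in old cells. Fos, Egr1 and Jun were each listed in more than 50% of cells of both ages, and Cyr61 in young and Dusp1 in old cells stood at 50% and 52.6%. The other 17 genes stayed under 20% at both ages, the highest of them being Gadd45b at 19.5% of young cells, while Ctgf stood just inside at 20.7%. Listed nowhere at 1 FPKM were Fosl1, Egr2, Egr3 and Nr4a3 in young cells, and Egr3, Nr4a2 and Nr4a3 in old cells. Every one of the 34 genes was at 0 FPKM in at least 1 cell of each age, so the lowest value is 0 throughout and is not repeated.

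**Figure D1:**
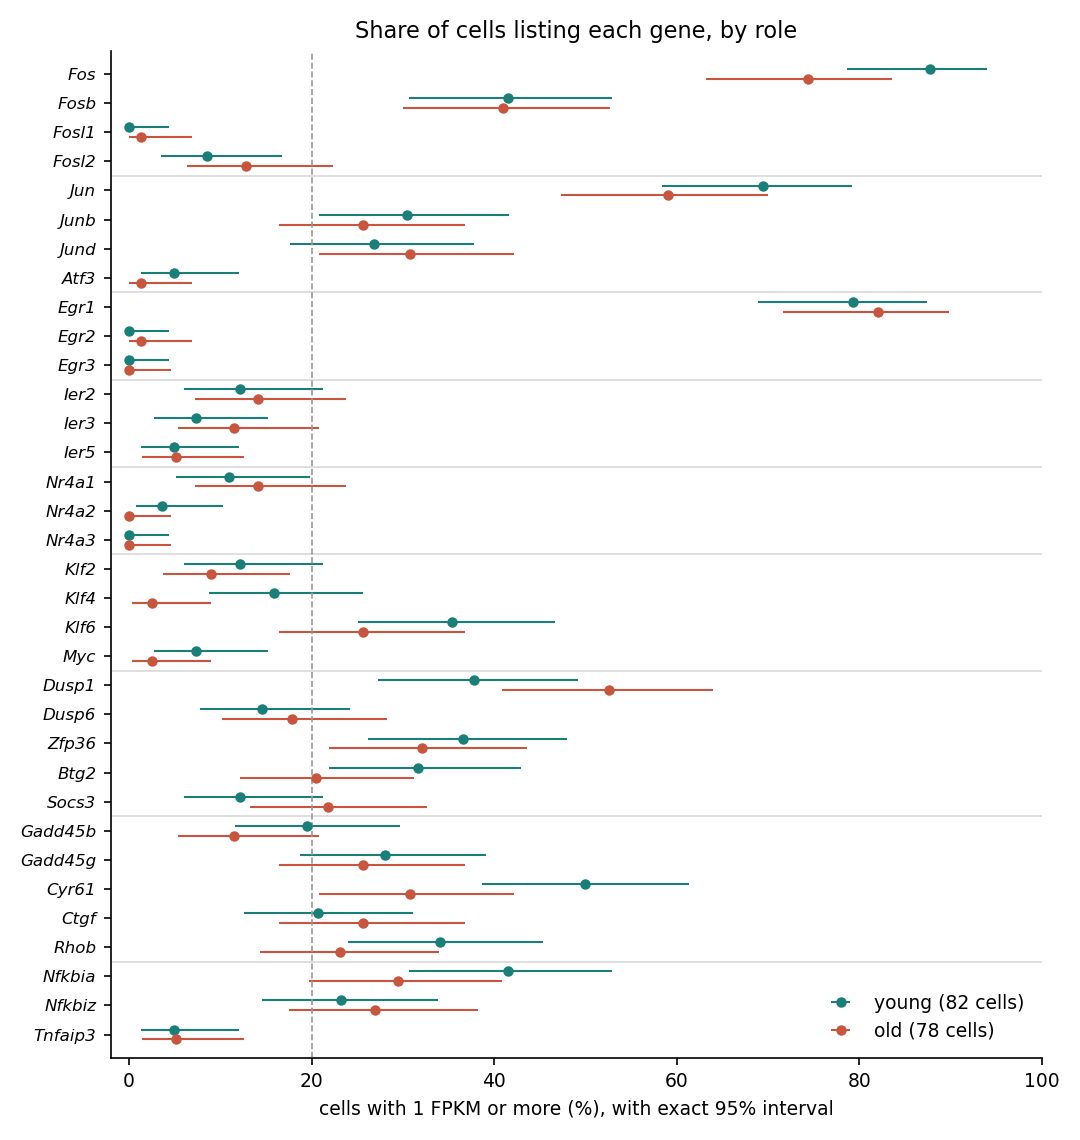
Share of cells (x axis, percent) in which each of the 34 genes (rows, grouped by role) was at 1 FPKM or more, in 82 young (green) and 78 old cells (red); bars are exact 95% intervals and the dashed line marks 20%. Fos, Jun and Egr1 stand above 50% at both ages, and the intervals of the 2 ages overlap in all 34 genes.

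In the FOS family, whose proteins pair with JUN proteins to form AP-1, Fos was the most widely listed and Fosb the second. Fos ran to 1157 FPKM with a median of 69.8 in young cells, and to 3287 with a median of 61.1 in old cells. Its share was 87.8% of the young cells (78.7 to 94.0) and 74.4% of the old (63.2 to 83.6), which ranked it 33rd and 71st by share among all named genes. The cells of the ages overlapped over nearly the whole range: 38 young and 31 old cells were at 100 FPKM or more, and 10 and 20 cells were under 1 FPKM. The Fos level was 5.65 at the young and 5.05 at the old age, with SDs over cells of 3.04 and 3.28, a difference of -0.60. Fosb reached 14403 FPKM in 1 young cell, which held 84.1% of its FPKM summed over all cells, so its mean FPKM is not used here. That cell had a summed FPKM of 1327692 over named genes and listed 632 of them. Fosb medians were 0.242 and 0 FPKM and the highest old cell stood at 74.2. Its shares, 41.5% (30.7 to 52.9) and 41% (30.0 to 52.7), differed by less than counting error, and its levels were 1.98 and 1.55. Of the other FOS genes, Fosl2 reached 1 FPKM in 7 young and 10 old cells, Fosl1 in 0 and 1.

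Among the JUN genes and Atf3, a stress-induced partner of AP-1, Jun was the most widely listed, Junb and Jund came next and Atf3 was rare. Jun had medians of 13.2 and 4.61 FPKM and highest cells of 1384 and 337. Its share was 69.5% (58.4 to 79.2) at the young and 59% (47.3 to 70.0) at the old age and its level 3.33 and 2.77, a difference of -0.56. Without cells under 50% of the median number of genes listed, the Jun difference was -0.18 and its old share 72.4%. Both ages held a band of cells at 0 and a broad band above 10 FPKM, with 45 young and 35 old cells there. Junb, the JUN protein known for restraining Jun, was listed in 30.5% (20.8 to 41.6) and 25.6% (16.4 to 36.8), with medians of 0.0399 and 0 FPKM, highest cells of 194 and 307 and levels of 1.05 and 1.13. Jund, the JUN gene that is usually present without a stimulus, had most of its cells at low values: it was above 0 in 52 young and 49 old cells but listed in 22 and 24. The Jund medians were 0.301 and 0.261 FPKM, its highest cells 15.1 and 68.0, its shares 26.8% (17.6 to 37.8) and 30.8% (20.8 to 42.2), and its levels 0.71 and 0.99. Atf3 was listed in 4 young cells and 1 old cell.

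Egr1 was the single widely listed EGR gene. This zinc finger factor had medians of 37.7 and 56.5 FPKM and highest cells of 5108 and 1097. Its share was 79.3% (68.9 to 87.4) in young and 82.1% (71.7 to 89.8) in old cells, and its level 4.62 and 5.04, a difference of 0.42 toward old cells where Fos and Jun had negative differences. The SDs over cells were 3.16 and 3.08, and 24 young and 32 old cells were at 100 FPKM or more. Egr2 was listed in 1 old cell and Egr3 in none, and at any value above 0 FPKM they were found in 4 and 3 old cells and in no young cell.

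The short-lived IER proteins, the NR4A orphan receptors and most KLF factors were carried by few cells each. Ier2 reached 1 FPKM in 10 young and 11 old cells, Ier3 in 6 and 9, and Ier5 in 4 and 4. At least 1 of them was found in 17 young cells (20.7%, 12.6 to 31.1) and 23 old cells (29.5%, 19.7 to 40.9). Nr4a1 was listed in 9 and 11 cells, Nr4a2 in 3 and 0, and Nr4a3 in 0 and 0. Klf6, a zinc finger factor induced by injury, was the most widely listed of its group, at 35.4% (25.1 to 46.7) and 25.6% (16.4 to 36.8), with medians of 0.0111 and 0.00175 FPKM and levels of 1.46 and 1.09. Its highest young cell stood at 214 FPKM and its highest old cell at 39467, which held 96.5% of the Klf6 FPKM of all cells and was the highest value of any of the 34 genes. That old cell had a summed FPKM of 1311925 over named genes and listed 436 of them.

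Klf4, a factor of growth arrest, was listed in 13 young cells (15.9%, 8.72 to 25.6) but in 2 old cells (2.56%, 0.312 to 8.96). Klf2 was in 10 and 7 cells, and Myc, the growth factor-induced regulator of biosynthesis, in 6 and 2. With Klf6 they made the group with the widest gap between the ages in the share of cells that list any of its genes, 56.1% (44.7 to 67) in young and 33.3% (23.1 to 44.9) in old cells, all 4 genes having the lower share in old cells. The intervals overlap at their ends, and the group was singled out after its values were seen.

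**Figure D2:**
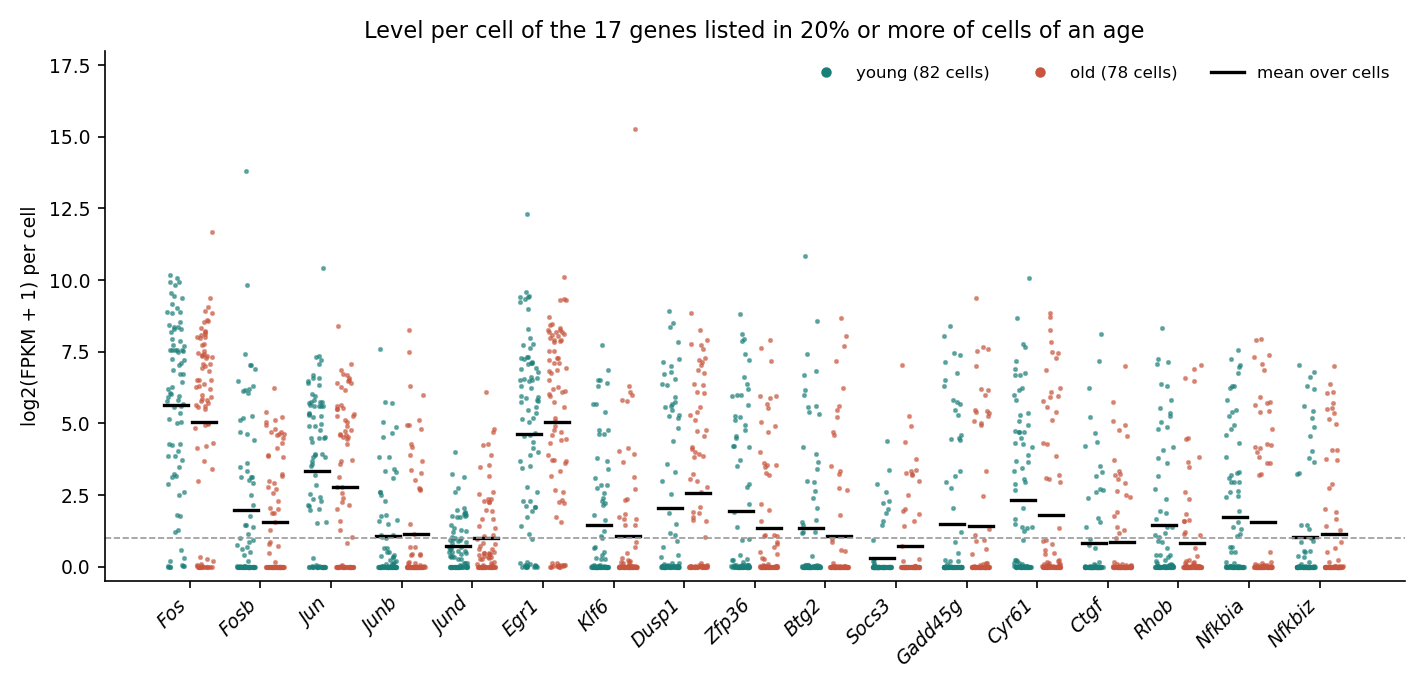
Level of each of the 17 genes listed in 20% or more of cells of an age (y axis, log2(FPKM + 1)), with 1 point per cell for 82 young (green) and 78 old cells (red) and the mean over cells as a black bar; the dashed line is 1 FPKM. Fos and Egr1 have the highest means at both ages, and the cells of the 2 ages overlap in every gene.

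The feedback genes included Dusp1, the nuclear phosphatase that inactivates MAP kinases. Dusp1 had medians of 0.0215 and 2.05 FPKM and highest cells of 482 and 456. Its share was 37.8% of the young cells (27.3 to 49.2) and 52.6% of the old (40.9 to 64.0), with levels of 2.04 and 2.58, the highest difference toward old cells of the set (0.54). In cells within the middle of each age by number of genes listed it was 0.11. Among the genes described singly, Socs3 (0.62), Jund (0.30), Egr1 (0.23), Ctgf (0.14) and Nfkbia (0.13) were higher there. Zfp36, the protein tristetraprolin that marks cytokine and immediate early messengers for decay, differed in the other direction. Its medians were 0.0390 and 0.0124 FPKM, its highest cells 450 and 240, its shares 36.6% (26.2 to 48) and 32.1% (21.9 to 43.6), and its levels 1.94 and 1.35, a difference of -0.59. Among cells that listed Zfp36 the median was 35.2 FPKM at the young and 11.2 at the old age, so the levels differed more than the shares.

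Btg2, an antiproliferative cofactor of messenger decay, had medians of 0.00436 and 0 FPKM, highest cells of 1830 and 407, shares of 31.7% (21.9 to 42.9) and 20.5% (12.2 to 31.2), and levels of 1.36 and 1.08. Socs3, which brakes signalling by gp130 cytokine and leptin receptors, was at a median of 0 FPKM at both ages with highest cells of 20.0 and 131. Its share was 12.2% (6.01 to 21.3) at the young and 21.8% (13.2 to 32.6) at the old age, with levels of 0.32 and 0.74. Dusp6, the cytoplasmic phosphatase of the ERK kinases, was listed in 12 and 14 cells. At least 1 of these 5 feedback genes was found in 53 young cells (64.6%, 53.3 to 74.9) and 59 old cells (75.6%, 64.6 to 84.7), and 2 or more in 36 cells of each age.

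Of the stress and cytoskeletal targets, Cyr61, a matricellular protein induced by serum and by mechanical load, had the largest gap in share of the 34 genes. Its share was 50% of the young cells (38.7 to 61.3) and 30.8% of the old (20.8 to 42.2), which is 19.2 points lower in old cells and just under the 20 points used as the mark of a difference in share. Its medians were 1.13 and 0.0238 FPKM, its highest cells 1064 and 457, and its levels 2.34 and 1.80. In cells that listed Cyr61, however, the median was higher in old (56.6 FPKM) than in young cells (24.7). Its relative Ctgf, another target of mechanical signalling, did not follow it: the shares were 20.7% (12.6 to 31.1) and 25.6% (16.4 to 36.8), the medians 0 and 0, the highest cells 276 and 127, and the levels 0.83 and 0.87.

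Rhob, the GTPase of this group that is induced by stress, had the lowest difference of level of the whole set, -0.64. In cells within the middle of each age by number of genes listed it was -0.54. Among the genes described singly, Cyr61 (-1.28), Zfp36 (-1.24), Fos (-1.06), Btg2 (-0.99), Fosb (-0.74), Klf6 (-0.73) and Gadd45g (-0.69) were lower there. Rhob medians were 0.0487 and 0 FPKM, its highest cells 320 and 129, its shares 34.1% (24.0 to 45.4) and 23.1% (14.3 to 34), and its levels 1.46 and 0.82. Gadd45g and Gadd45b encode small stress proteins that bind upstream kinases. Gadd45g was listed in 28% (18.7 to 39.1) and 25.6% (16.4 to 36.8) of cells, with medians of 0, highest cells of 333 and 661 FPKM and levels of 1.48 and 1.42. Gadd45b was listed in 16 young and 9 old cells.

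The NF-kB feedback genes were led by Nfkbia, which encodes the inhibitor that holds NF-kB in the cytoplasm and is itself an NF-kB target. It was listed in 41.5% (30.7 to 52.9) and 29.5% (19.7 to 40.9) of cells, with medians of 0.0239 and 0 FPKM and highest cells of 190 and 244. Share and amount again went apart: the cells that listed Nfkbia had a median of 11.1 FPKM at the young and 40.8 at the old age, and the levels were 1.73 and 1.57. Nfkbiz, the nuclear member of the inhibitor family, had shares of 23.2% (14.6 to 33.8) and 26.9% (17.5 to 38.2), medians of 0, highest cells of 129 and 127 FPKM and levels of 1.05 and 1.15. Tnfaip3, the ubiquitin-editing enzyme A20, was listed in 4 cells of each age.

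Between the ages, none of these genes passed the marks set for a difference. Of the 34 genes 25 were listed in 10% or more of cells of either age and were compared, and 9 were not, each of them listed in at most 6 cells of an age. In the intervals of the shares, the ages overlapped for each of the 34 genes. A level higher by 1 or more in old cells was found for 0 of the 25, where 1.25% of 3989 genes compared in the same way had it, and a level higher by 1 or more in young cells for 0, where 1.75% did. A share higher by 20 points or more was found for 0 in old cells (background 0.602%) and for 0 in young cells (background 1.25%). A count of 0 among 25 genes is near these backgrounds. Genes under 20% at both ages, Klf4 among them, could not reach a gap of 20 points. Among genes listed in 25% of cells of either age, 0 of 16 members passed the mark of share either way. The backgrounds there were 1.68% toward old and 3.44% toward young cells, over 1368 genes. The differences of level ran from -0.64 for Rhob to 0.54 for Dusp1 with a median of -0.06, against a median of 0.00 and a range of -3.29 to 2.46 over all genes compared. The level was higher in old cells for 12 genes and in young cells for 13. The differences of Junb, Ctgf, Nfkbia and Nfkbiz took both signs over the alternatives. Restricting the cells to the middle of each age by number of genes listed (its interquartile range) changed this, with 29 of the 34 genes then compared and 3 of them (Cyr61, Fos and Zfp36) at a level higher in young cells by 1 or more, where 2.38% of 4663 genes were. The median difference was then -0.29 over the members and 0.01 over all genes compared. Without cells under 50% of the median number of genes listed, 69 young and 58 old cells were kept. There the differences of Fos (-0.37), Jun (-0.18) and Fosb (-0.09) were smaller, and those of Btg2 (-0.60) and Klf6 (-0.58) larger. The median was then -0.08 over the members and 0.06 over all genes compared.

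The number of these genes listed in a cell ran from 1 to 21 in young cells with a median of 8, and from 0 to 17 in old cells with a median of 7. The quartiles were 5 and 10 in young and 4 and 10.75 in old cells. Cells with 10 or more of the genes numbered 26 and 25, and cells with 3 or fewer numbered 10 and 19. The number moved with the number of all named genes listed in the cell, with Spearman rho of 0.48 over 82 young and 0.63 over 78 old cells, and the part of cell coverage in it was not tested apart from the partial correlations below. The young cell with 21 of the genes listed 1227 named genes, close to the median of its age.

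**Figure D3:**
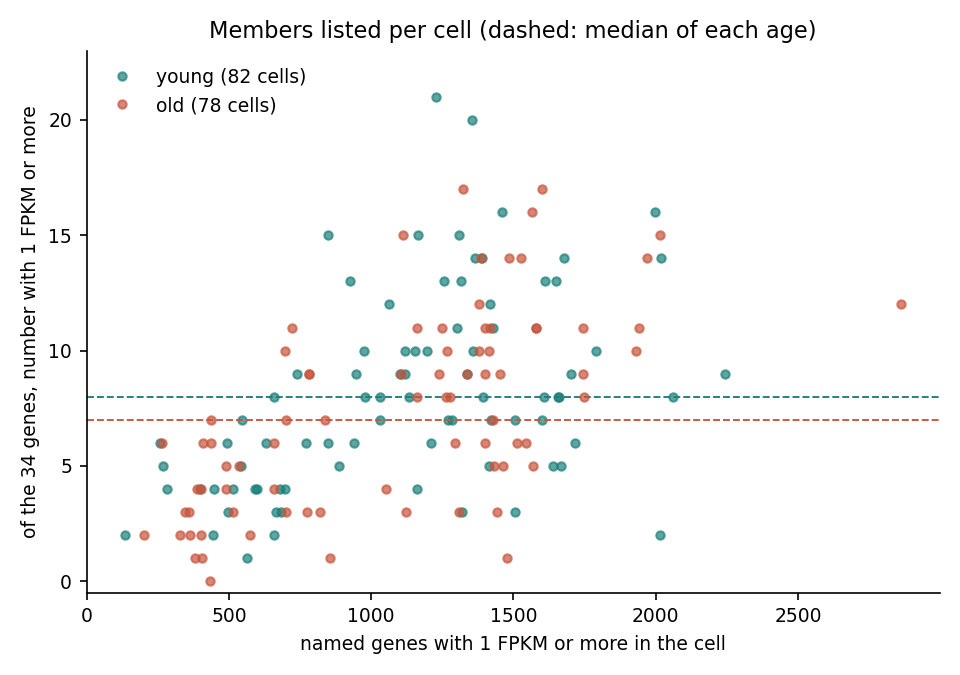
Number of the 34 genes at 1 FPKM or more in a cell (y axis) against the number of all named genes at that level (x axis), with 1 point per cell for 82 young (green) and 78 old cells (red) and the median of each age as a dashed line. The medians are 8 and 7, and the spread of members at a given number of named genes is wide.

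Fos, Jun and Egr1 were listed together in 44 young cells (53.7%, interval 42.3 to 64.7) and 38 old cells (48.7%, 37.2 to 60.3). None of the 3 was listed in 1 young cell (1.22%, 0.0309 to 6.61) and 7 old cells (8.97%, 3.68 to 17.6). Cells with all 3 listed a median of 7 of the other 31 genes at both ages, against 3 in the remaining young and 2.5 in the remaining old cells. The former also listed more named genes, with medians of 1263 against 912.5 in young and 1383 against 796 in old cells.

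Over cells of the same age, the median correlation between these genes lay above that of gene pairs in general. Over the 16 genes listed in 20% of young cells the median Spearman rho of 120 pairs was 0.242 (quartiles 0.16 and 0.31), against 0.146 for all pairs of 1558 genes listed as widely. Over 17 genes in old cells the median of 136 pairs was 0.237 (0.15 and 0.30), against 0.163 for all pairs of 1515 genes. A rho of 0.3 or more was reached by 37 pairs in young cells (30.8%, background 10.3%) and by 35 in old cells (25.7%, background 12.6%). All pairs share the cells and their coverage. With the number of genes listed in the cell held constant by partial correlation, the medians were 0.180 against 0.012 in young and 0.129 against 0.016 in old cells. These are descriptions of 82 and 78 cells with no test, and rho values near the medians are weak. The set was also chosen with earlier results of these data known, which may favour its pairs.

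**Figure D4:**
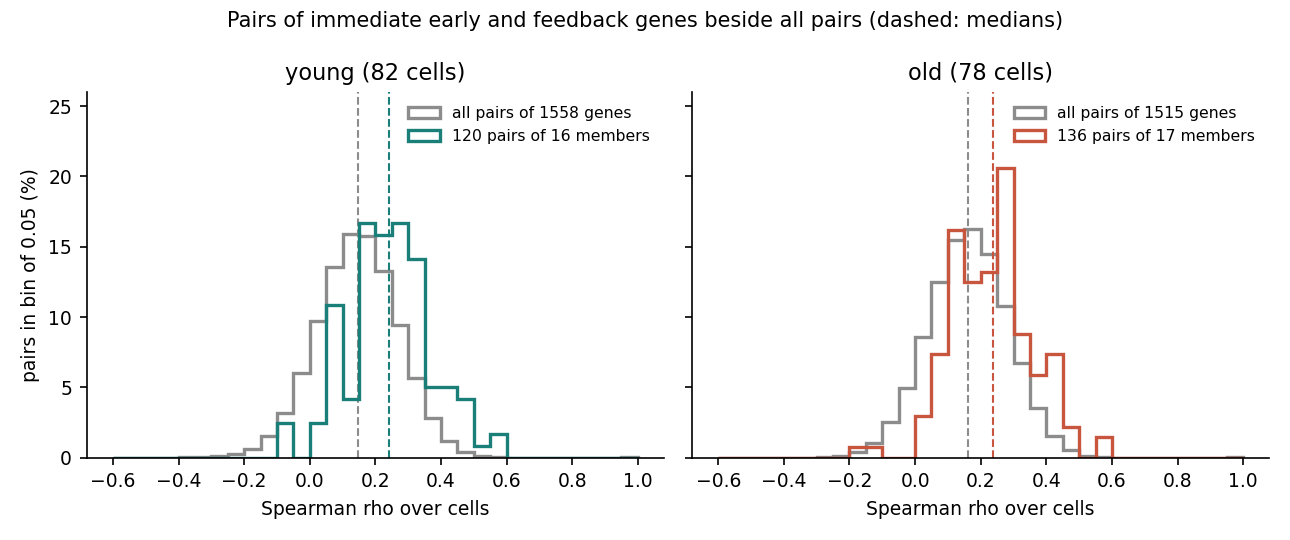
Distribution of Spearman rho over 82 young (left) and 78 old cells (right), as the percent of pairs in each bin of 0.05 (y axis), for pairs among the 34 genes (coloured) and for all pairs of genes listed in 20% or more of cells (grey); dashed lines are medians. The coloured medians of 0.242 and 0.237 lie to the right of the grey medians of 0.146 and 0.163.

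The pairs that led at the 2 ages were only partly the same. For 120 pairs of 16 genes measured in both, 116 had a rho above 0 at both ages, and 20 (16.7%) had 0.3 or more at both, where 2.60% of 759528 pairs of all genes did. Over these pairs the young and old values correlated with r = 0.41, against 0.21 over all pairs. Pairs share genes and are not independent. The 10 pairs with the highest mean rho were made from 7 genes, Fos and Jun in 4 pairs each, Fosb, Egr1 and Dusp1 in 3, Junb in 2 and Nfkbiz in 1. They were chosen by the mean of both ages, which favours pairs high at both. Zfp36 and Ctgf, with 0.18 in young and 0.45 in old cells, were not among them.

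Fosb and Junb led, with rho of 0.43 in young and 0.60 in old cells, and they were listed together in 16 cells of each age. Fos and Egr1 followed with 0.44 and 0.58, together in 60 young and 52 old cells. Jun paired with Dusp1 at 0.56 and 0.41, where 30 of the 31 young and 30 of the 41 old cells that listed Dusp1 also listed Jun. Jun and Egr1 had 0.47 and 0.48, Fosb and Jun 0.41 and 0.50, and Fos and Jun 0.49 and 0.41. Egr1 and Dusp1 had 0.54 and 0.36, and Fos and Junb 0.50 and 0.38, with all 25 Junb cells of the young age and 19 of 20 of the old age among the Fos cells, Fos itself being listed in 87.8% and 74.4% of cells. Fos and Fosb had the highest value of the young cells, 0.58, but 0.29 in old cells, a gap that was not tested. Dusp1 and Nfkbiz had 0.39 and 0.45. Given the number of genes listed, the partial rho of these 10 pairs ran between 0.34 and 0.57 in young and between 0.22 and 0.57 in old cells.

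**Figure D5:**
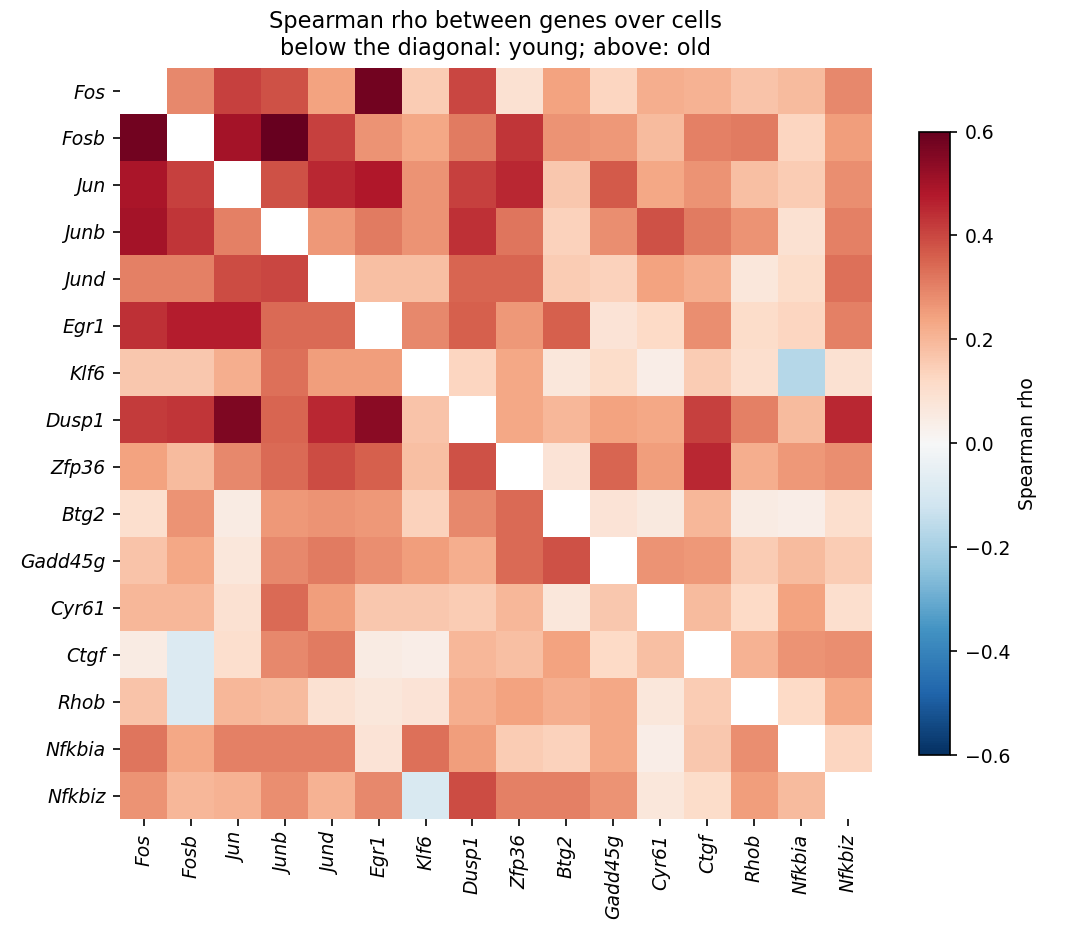
Spearman rho over cells between 16 of the genes (rows and columns in the order of their roles), with 82 young cells below and 78 old cells above the diagonal; red is above and blue below 0. The 9 pairs with the highest mean of both ages lie among Fos, Fosb, Jun, Junb, Egr1 and Dusp1, and 4 pairs have a value below 0 at 1 of the ages.

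By role, with Egr1 joined to AP-1, the 15 pairs within AP-1 and Egr1 had a median rho of 0.41 (0.30 to 0.58) at the young and 0.38 (0.18 to 0.60) at the old age. Klf6 was placed in none of these blocks, and its median rho to the other members was 0.17 in young and 0.15 in old cells. Their 18 pairs with the feedback genes Dusp1, Zfp36 and Btg2 had medians of 0.31 and 0.34. Their 24 pairs with the stress and cytoskeletal targets had 0.18 and 0.22, and their 12 pairs with Nfkbia and Nfkbiz 0.27 and 0.22. Cyr61, Ctgf, Gadd45g and Rhob were loosely tied to each other as well, with medians of 0.16 and 0.20 over 6 pairs, close to the medians of all pairs of genes. The pair of NF-kB inhibitors had 0.19 and 0.13. A value of opposite sign at the 2 ages was seen in 4 pairs: Klf6 with Nfkbia (0.33 and -0.17), Klf6 with Nfkbiz (-0.09 and 0.09), Fosb with Rhob (-0.08 and 0.31) and Fosb with Ctgf (-0.08 and 0.30).

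Seen gene by gene, Dusp1 had the highest median rho to the others in young cells (0.35) and Jun in old cells (0.32), followed by Junb with 0.33 and Dusp1 with 0.31. Ctgf (0.15) and Cyr61 (0.16) had the lowest in young cells, and Nfkbia (0.13) and Btg2 (0.14) in old cells. Btg2 stood at 0.26 in young and Nfkbia at 0.23, and neither change was tested.

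Outside the set, the 10 genes with the highest mean rho to its members in young cells were Nip7, Gmeb1, H2-T23, Omd, Irak1, Tmem69, Ostf1, Srsf2, Dclre1c and Whsc1l1, out of 1074 genes listed in 20% of cells of each age. Their mean rho to the 16 members ran from 0.36 for Nip7 to 0.30 over 82 young cells, where the median gene had 0.14. The members' own mean rho to one another had a median of 0.25 and a highest value of 0.33 in young cells, so the 10 genes, which were picked as the highest of 1074, lay above the median member and Nip7 above every member. In old cells the members' median was 0.25 as well and their highest value 0.33. All these are plain rho values, with the number of genes listed in the cell not held constant. In the 78 old cells, which did not choose them, the values ran from 0.12 for Whsc1l1 to 0.25 for Irak1, 9 of 10 above the median of 0.15, and the ranks from 36 to 718. Irak1, a kinase of interleukin receptor and Toll-like receptor signalling, had the best rank of the 10 in old cells, 36, after rank 5 in young cells. Omd encodes the bone proteoglycan osteomodulin and Srsf2 a splicing factor.

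The surrounding pathway genes are given by the same marks of size, with no test. Of 38 other fast response genes 20 were compared, with a median difference of level of -0.09 and 0 past a difference of 1 either way. The most widely listed of them were Errfi1, an inhibitor of the EGF receptor, in 75.6% of young and 79.5% of old cells, and Zfp36l1, the relative of Zfp36, in 72.0% and 76.9%. Of 11 SRF, ETS and CREB factors that act on immediate early promoters 6 were compared (median -0.25, 0 past the mark), led by Crebbp in 29.3% and 25.6% and Ep300 in 22% and 10.3% of cells. Of 26 MAP kinase genes 25 were in the table and 13 were compared (median 0.01, 0 past the mark), led by Nras in 35.4% and 38.5% and the feedback inhibitor Spry2 in 28% and 38.5%.

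On the NF-kB side, 11 of 24 core and regulator genes were compared (median -0.16, 0 past the mark), and none was widely listed: Tnfrsf1a, a tumour necrosis factor receptor, was in 24.4% and 20.5% of cells and Birc3 in 13.4% and 20.5%. Of 15 inflammatory targets 4 were compared (median -0.02, 0 past the mark), with Csf1, the macrophage growth factor, in 54.9% and 44.9% and Il1rn in 35.4% and 33.3%. Of 9 other SOCS and STAT pathway genes 7 were compared (median 0.27, 0 past the mark), led by the receptors Osmr in 26.8% and 41% and Il6st in 22% and 35.9% of cells. Of 10 YAP and TEAD genes, the mechanical pathway upstream of Cyr61 and Ctgf, 4 were compared (median -0.06, 0 past the mark), led by Tead1 in 31.7% and 32.1% and Lats2 in 13.4% and 26.9%. Of 13 heat shock genes 9 were compared (median -0.37), led by Hspa8 in 87.8% and 82.1% and Hsp90ab1 in 73.2% and 55.1%, and 1 passed the mark toward young cells, the cochaperone Dnaja1, with levels of 2.92 and 1.82. Among 6 housekeeping genes (median 0.39), Actb and B2m were listed in all cells and Actb passed the mark toward old cells with levels of 7.84 and 8.89. Among the stromal markers, Kitl passed it toward young cells with levels of 6.08 and 4.70.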

How the data were processed

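RNA was measured in 160 single cells, 82 young and 78 old, captured and amplified on Fluidigm C1 chips with SMARTer chemistry, per the labels' protocols. Wells that held other than a single intact cell had been set aside by microscopy. This left 83 young and 79 old wells, so 1 well of each age is not analysed here. No doublet caller was run, since doublets had been removed by eye. The authors deposited FPKM values in a single table with genes in rows and cells in columns. Cufflinks 2.1.1 and the build mm9 are named per the submitters' processing notes. The aligner, annotation, filters and sequencing depth were not given in the sources used here. No count model was applied, as FPKM do not hold counts, the precision that depth gives is unknown, and reads shared between near-identical genes may have been split in unknown ways. Of 31199 rows, 7751 without a gene name were not used. The 356 rows that join several names counted for each name, and none of them holds a gene of the set.

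Each age was treated as 1 sample, because no animal is named and cells are not replicates, so no test was run between ages and no p is given. Genes listed at 1 FPKM in 10% or more of cells of either age were compared, by the difference of mean log2(FPKM + 1), old minus young (pseudocount 1, mark 1), and by the difference in share of cells (mark 20 percentage points). The pseudocount understates differences of low genes. Spearman rho was taken over the cells of 1 age between genes listed in 20% or more of them, and also as a partial rho given the number of named genes listed. Genes listed in 20% or more of cells of either age are described singly, the others by counts, with the 10 pairs of highest mean rho, the 10 outside genes of highest mean rho in young cells (predicted, ribosomal protein and small RNA genes skipped) and the 2 most widely listed genes of each pathway list. The members and the lists were chosen with earlier results of these data known. Alternatives changed the listing level, the pseudocount, the filter, the cells kept, the scaling, the joined rows and the measure of co-variation. The steps were tested on simulated data, resampled from young cells with changed genes and a planted group of genes that vary together. Promoters came from RefSeq (GRCm38.p6) and were matched by symbol. Python 3.11.15 was used with numpy 2.4.6, pandas 2.3.3, scipy 1.17.1 and matplotlib 3.10.9.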

Additional observations from a re-analysis of the deposited data

How the results depend on the processing

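No paired analysis was possible because the cell numbers in the labels are only names and no result comes from a test. The median rho over member pairs stayed above the median over all pairs in 22 of 22 combinations of age and setting, the gap being smallest (0.025) with the phi coefficient of listed or not in young cells. In old cells the member median, 0.237 as reported, was 0.142 with cells limited to the interquartile range of their number of genes listed, 0.142 as Pearson r of log2(FPKM + 1), 0.129 as partial rho, 0.150 as phi, and 0.405 over genes listed in 40% of cells. In young cells, 0.242 as reported, it was 0.156 in cells within the interquartile range and 0.124 as phi. The median number of members listed per cell was 11 in old cells with any FPKM above 0 counted and 5.0 in young cells at 10 FPKM. At 10 FPKM the median share over members was 8.97% in old and 8.54% in young cells. The 0 members with a level higher in young cells by 1 or more became 2 with a pseudocount of 0.1 (Fos and Rhob) and 3 in cells within the interquartile range (Cyr61, Fos and Zfp36), where 5.89% and 2.38% of all genes compared passed. The 0 members with a share higher in young cells by 20 points or more became 1 with any FPKM above 0 counted (Klf4) and 3 in cells within the interquartile range (Btg2, Cyr61 and Junb), with 2.37% and 2.47% of all genes. The cause was not tested, and fewer cells, 40 young and 38 old, enter the interquartile settings. Over 10 settings the difference of level kept its sign for 13 of 17 genes and took both signs for Junb, Ctgf, Nfkbia and Nfkbiz. The settings of the filter and of the joined rows cannot change the level of a member, so they repeat the reported value. Unknown depth limits every share near 0, and 9 of the 34 genes had over 50% of their summed FPKM in 1 cell.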
